A study of Mus musculus with 6 samples.

Results

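T-box factors are transcription factors that bind DNA through a shared T-box domain, and several of them pattern the embryonic heart. The 6 described here are Tbx1, Tbx2, Tbx3, Tbx5, Tbx18 and Tbx20, which act in heart and pharyngeal mesoderm. They are 6 of the 18193 genes with a probe set of a single symbol on the array, and they were measured by 14 of its 45037 probe sets, controls left out. A probe set is a group of short oligonucleotides that report 1 transcript, and those counted here carry the symbol of exactly 1 of these genes in the platform's annotation. Tbx3 had 5 probe sets, Tbx20 had 3, Tbx5 and Tbx18 had 2 each, and Tbx1 and Tbx2 had 1 each.

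The series compares hearts of wild-type (WT) mouse embryos with hearts of embryos lacking Rnd3, also called RhoE (knockout, KO), at E10.5, in mid-gestation, while the chambers of the looped heart are forming. The 3 WT and 3 KO arrays came from the C57BL/6N background, and the knockout is global and was made with a gene trap that breaks the transcript. It acts in every tissue of the embryo and is lethal around and soon after this stage, per the series' design text, so no cell type of the heart is singled out. That text speaks of littermate pairs, but the labels do not say which arrays share a litter or how many hearts an array holds, so p-values measure only the spread between arrays, part of which may be technical.

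In the heart, Tbx5 and Tbx20 act with Nkx2-5 and the Gata factors to switch on chamber genes. Tbx2 and Tbx3 are repressors that keep the atrioventricular canal, and for Tbx3 also the later conduction system, from taking on a chamber fate, and Bmp signals are known to induce Tbx2. Tbx18 marks the epicardium and the sinus horns, and Tbx1 acts in pharyngeal mesoderm and the second heart field, which adds cells to the outflow tract.

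Values are MAS5 signals, linear and scaled by the authors to the same trimmed mean on every array, and a higher signal on one probe set than on another does not mean more transcript. A low-signal limit, a working choice and not a measured background, was set at each array's 40th percentile and came to 44.5 to 52.8. Probe sets above it on at least 3 of the 6 arrays were tested (27404 in all, 12 of the 14 for these genes), and the number of arrays, 3 per group, limits the precision. Log2 signals correlated between any 2 arrays at r = 0.967 to 0.978. Rnd3 read 862 to 954 in WT and 5.89 to 121 in KO. Cardiomyocyte genes such as Tnnt2 and Actc1 were tested for all 12 listed markers. Their summed signal was 338606 to 364187 in WT and 317043 to 353601 in KO.

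The arrays also differ in sex-linked transcripts and, for Gapdh but not beta-actin, in a sign of RNA integrity. Xist, the RNA that silences an X chromosome in female cells, read 10251 to 12474 in WT but 539, 8884 and 28.4 on KO arrays 1, 2 and 3. Kdm5d, Uty and Eif2s3y, which lie on the Y chromosome, were each higher on all 3 KO arrays than on any WT array, and the lowest of the KO arrays was array 2 for each. The ratio of 3' to 5' signal of Gapdh was 1.11 ± 0.0175 in WT and 0.969 ± 0.0274 in KO (SD, n = 3 per group), with no overlap. That of beta-actin was 2.52 ± 0.147 in WT and 2.40 ± 0.164 in KO (SD, n = 3 per group), and the groups overlapped.

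Of the 6 factors, only Tbx3 passed the test, and it was lower in the knockout hearts. That call depended on the setting, and failing to pass does not show that a factor was unchanged. The brightest Tbx3 probe set, 1448029_at, was the 1 of 12 tested probe sets past an adjusted p of 0.05 (limma, Benjamini-Hochberg over all tested probe sets), against 0.595% of all 27404 in either direction and 0.204% as lower. The groups did not overlap for 3 of the 12, against 23.1% of all tested probe sets, and these were the 2 brighter Tbx3 probe sets and that of Tbx2. Log2 fold changes, always KO minus WT, were below 0 for 9 of the 12 with a median of -0.25, beside a median of -0.03 and 54.7% below 0 over all tested probe sets. In tissue RNA, fewer cells of a type and less RNA per cell cannot be told apart.

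**Figure D1:**
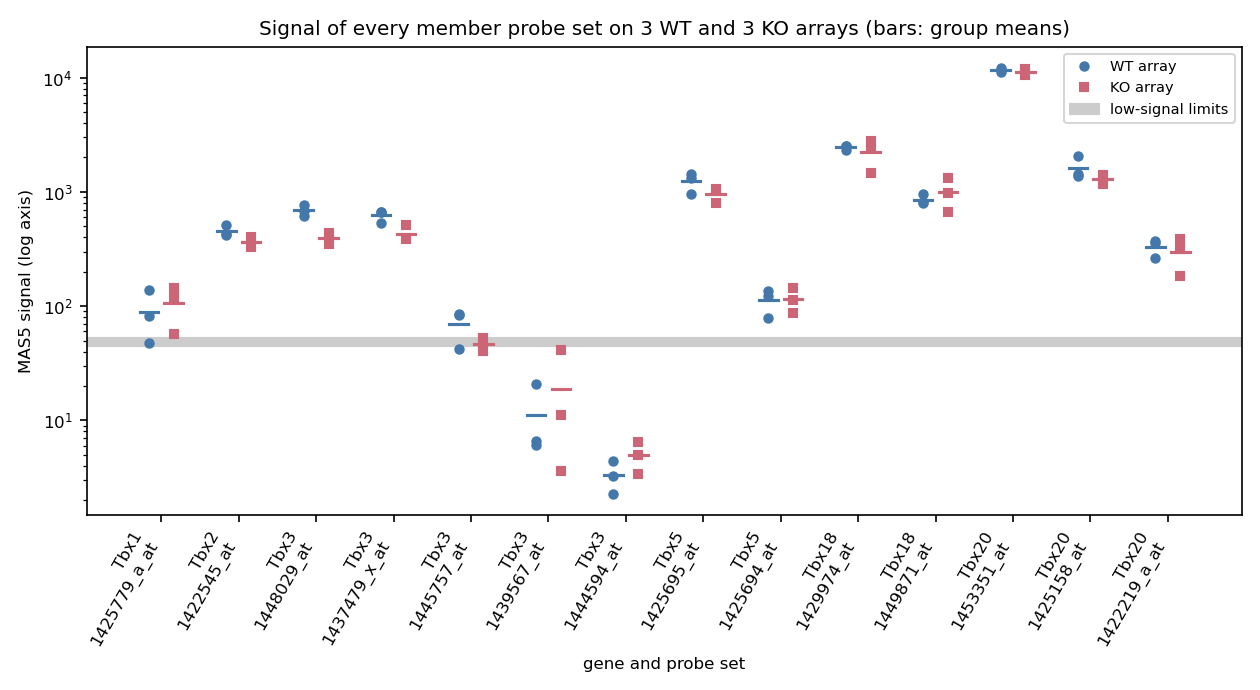
MAS5 signal (log axis) of all 14 probe sets on the 3 WT arrays (blue circles) and 3 KO arrays (red squares), with bars at the group means and a grey band over the low-signal limits of the 6 arrays. The groups do not overlap for Tbx2 and the 2 brightest Tbx3 probe sets, and 2 further Tbx3 probe sets lie below the band on every array.

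Among the repressors, Tbx3 read 683, 764 and 618 on WT arrays 1 to 3 by probe set 1448029_at and 434, 347 and 396 on KO arrays 1 to 3. Every KO heart sample thus lay below every WT one, and KO array 2 was the lowest. The signal went from 689 ± 73.4 to 392 ± 43.5 (SD, n = 3 per group), or -0.81 on the log2 scale (SE 0.14, 95% interval -1.11 to -0.51, limma adjusted p = 0.0356, lower in 3 of 3 KO arrays). It stood at 57.0% of the WT mean. Its rank by p among the 27404 tested probe sets was 64.

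The other Tbx3 probe sets did not pass on their own. Probe set 1437479_x_at read 672, 670 and 529 in WT against 509, 385 and 391 in KO, again without overlap, though the lowest WT and highest KO arrays were close. Its log2 fold change was -0.55 (SE 0.15, 95% interval -0.88 to -0.21, limma adjusted p = 0.113), and the suffix x marks probes that may also bind other transcripts. The dim probe set 1445757_at read 42.4, 84.0 and 84.5 in WT against 52.6, 40.3 and 46.6 in KO, so WT array 1 lay among the KO arrays, and the change of -0.54 (SE 0.39) had a limma adjusted p = 0.527. The remaining 2, 1439567_at and 1444594_at, were below the low-signal limit on all 6 arrays, at 3.58 to 41.7 and 2.29 to 6.41, and were not tested. Where the 5 probe sets lie in the transcript was not analysed here.

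The Tbx3 call depended on the setting. The log2 fold change was below 0 under all 18 alternatives, but many of them could not turn its sign. The groups did not overlap, so leaving out or weighting arrays could not do so. Settings that change only the filter or the variance model leave the fold change as it is. Of the 18, 9 kept it past the threshold, with adjusted p from 0.0153 to 0.823 over the 18. Leaving out WT array 1, 2 or 3 gave limma adjusted p = 0.163, 0.192 and 0.0749, and leaving out KO array 2 or 3 gave 0.0593 and 0.140. Averaging all 5 probe sets, the 2 below the limit included, gave -0.20 (adjusted p = 0.823).

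Xist and markers of some other tissues differed between the groups as well. With Xist as a covariate the Tbx3 change was -0.91 (SE 0.18, limma adjusted p = 0.0863), a fit that rests mostly on KO array 2, whose weight is 0.87 (KO array 1 has 0.34 and KO array 3 has -0.21). KO array 2 had the lowest signal of the 6 arrays for this probe set. Its Xist signal was the nearest to WT among the KO arrays, but its Kdm5d, Uty and Eif2s3y signals were above every WT array. Genotype and sex-linked signal differ together, so their parts in the Tbx3 difference cannot be told apart here. Endoderm markers of liver and yolk sac were below 0 for all 9 tested of 12 on the array, with a median of -0.91, none past the test and Ahsg below the limit throughout. That median was -1.03 without WT array 1, -0.40 without WT array 3 and -0.20 with the Xist covariate. Their summed signal was 1811 to 7849 in WT and 565 to 2235 in KO. Afp made up most of that sum in WT, at 1116, 2496 and 6054, and read 216, 1074 and 2.78 in KO. Markers of pharyngeal and foregut epithelium were below 0 for 7 of 8 tested of 13 on the array, and none passed. The median of -0.53 was -0.77 without WT array 1 and -0.14 with the Xist covariate. Summed signal of these markers was 5412 to 6040 in WT and 3049 to 5076 in KO. Nkx2-1, Pax9 and Pax1 were below the limit on every array. Most of that sum was Krt8 (means 3270 in WT and 2264 in KO) and Krt18 (1812 and 1354), whose groups did not overlap. The other tested markers of this list read at most 168 on any array, and their groups overlapped. No marker passed for neural crest (median -0.066), limb bud and body wall mesenchyme (0.17), skeletal muscle precursors (-0.096) or erythroid cells (0.0045). The groups overlapped for all markers tested there, 5, 6, 3 and 8 in that order. The part of all these markers and of the Gapdh ratio in the Tbx3 difference was not tested.

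Tbx2, the close relative of Tbx3 that patterns the atrioventricular canal, read 418, 517 and 427 in WT against 401, 331 and 357 in KO. The groups did not overlap, and KO array 1 lay just below the lowest WT array. The change from 454 ± 55.0 to 363 ± 35.1 (SD, n = 3 per group), -0.32 on the log2 scale (SE 0.14, 95% interval -0.63 to -0.01), did not pass (limma adjusted p = 0.279). It was below 0 under all 18 alternatives, from -0.39 to -0.22, though without overlap leaving out an array could not turn the sign.

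**Figure D2:**
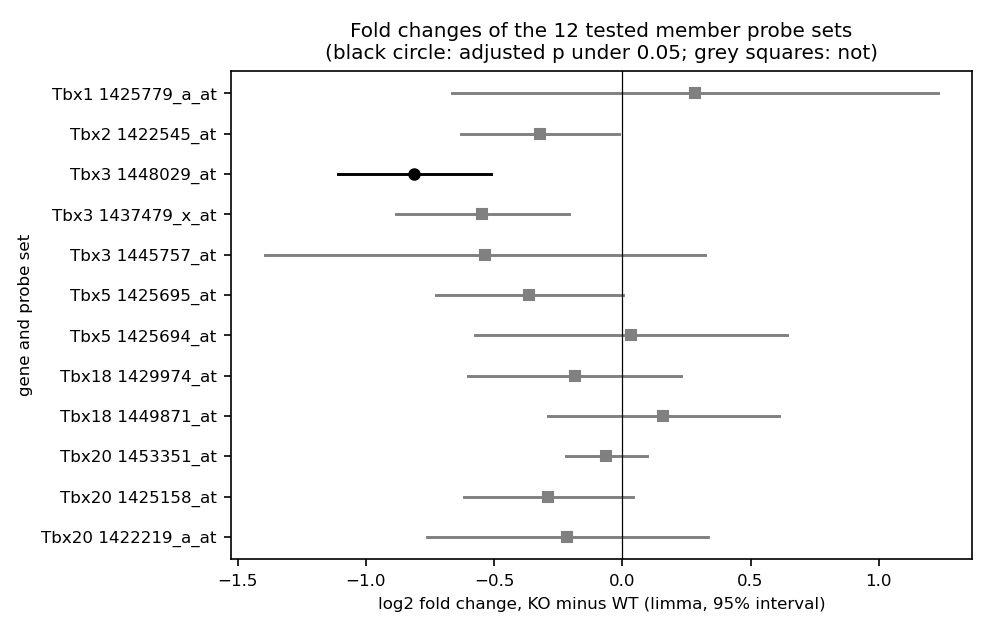
Log2 fold changes (KO minus WT, horizontal axis) of the 12 tested probe sets with limma's 95% intervals. Tbx3 1448029_at at -0.81 (black circle) is past the adjusted threshold, while the intervals of Tbx2 and Tbx3 1437479_x_at also lie below 0 without passing it.

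Of the chamber activators, Tbx5, whose loss in people causes Holt-Oram syndrome of heart and hand, read 1446, 1332 and 954 in WT against 1069, 1020 and 793 in KO by its brighter probe set, 1425695_at. WT array 3 fell among the KO arrays, so the groups overlapped. The log2 fold change was -0.36 (SE 0.17, 95% interval -0.73 to 0.0031, limma adjusted p = 0.301). The dimmer probe set 1425694_at read 79.2, 137 and 124 in WT against 145, 87.7 and 113 in KO, with no common order of the groups and a change of 0.03 (SE 0.28, limma adjusted p = 0.966). Both probe sets carry the same source accession in the annotation, yet they gave different values for the gene.

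Tbx20, needed for chamber growth and for restraining Tbx2 in the chambers, was flat by its brightest probe set. Probe set 1453351_at read 11541, 11117 and 12062 in WT against 11794, 10887 and 10587 in KO, a change of -0.06 with the narrowest interval of the 12, from -0.22 to 0.10 (SE 0.07, limma adjusted p = 0.710). Probe set 1425158_at read 2046, 1381 and 1422 in WT against 1161, 1397 and 1359 in KO, where only WT array 1 stood clear of the rest (-0.29, SE 0.15, limma adjusted p = 0.361). Probe set 1422219_a_at read 265, 355 and 375 in WT against 313, 185 and 390 in KO, and KO arrays 2 and 3 were the lowest and the highest of the 6 (-0.21, SE 0.25, limma adjusted p = 0.710).

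Tbx18, the epicardial and sinus horn factor, varied more among the KO hearts than among the WT hearts. Other genes did so too, such as Nkx2-5 (SD 34.0 in WT and 404 in KO), while Bmp2 did not (697 and 126). How common a wider KO spread was over all genes was not counted. For Tbx18, probe set 1429974_at read 2504, 2307 and 2525 in WT against 2441, 2772 and 1465 in KO, and 1449871_at read 952, 796 and 815 in WT against 986, 1318 and 663 in KO. On both, KO array 2 was above every WT array and KO array 3 below every WT array. The SD on the signal scale was 120 in WT and 680 in KO for the former, and 85.1 and 327 for the latter. The log2 fold changes were -0.19 (SE 0.19, limma adjusted p = 0.666) and 0.16 (SE 0.20, limma adjusted p = 0.740). The sign turned without KO array 3 for the former (0.090) and without KO array 2 for the latter (-0.075). Shox2, a gene of the atrioventricular canal and sinus node list, is named here after its values were seen. It read 2448, 2303 and 1531 in WT against 2181, 2074 and 96.2 in KO, so only KO array 3 was below WT. Its change was -1.44 (SE 0.91, limma adjusted p = 0.458).

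Of 14 tested epicardial genes, 8 had the same order among the KO arrays, highest on array 2 and lowest on array 3, and 6 did not. Over all 12712 genes tested by their brightest probe set, 17.1% had it, and so did 10 of the 18 tested second heart field and pharyngeal genes, a list that shares genes with the epicardial one. For 7 of the 14 epicardial genes KO array 2 was also above and KO array 3 below every WT array, against 3.49% of all genes. The 7 were Wt1 and Tcf21, transcription factors of the epicardium, Aldh1a2, which makes retinoic acid, and Upk3b, Sema3d, Bnc1 and Gpm6a. In the second heart field and pharyngeal list this held for 4 of 18, which were Tcf21 and Aldh1a2 again and the forkhead genes Foxc1 and Foxc2. In the atrioventricular canal and sinus node list it held for none of 18, and 2 of them had the order alone. This order was chosen after the Tbx18 values were seen, and these genes are named for it. The counts describe 3 KO arrays and carry no test. The list as a whole had a median of -0.03, with 6 above and 8 below 0 and none past the test. The median was -0.18 without KO array 2 and 0.18 with the Xist covariate, and its summed signal was 20393 to 21168 in WT and 16660 to 22571 in KO. Of 7 tested macrophage markers, 4 had KO array 2 above and KO array 3 below WT (Csf1r, Cx3cr1, C1qb and Cd68). Lyz2, the lysozyme gene and the 1 marker of that list past the test, did not have this pattern and is named after its values were seen. Its signals of 261, 203 and 232 in WT stood against 368, 828 and 707 in KO, so all 3 KO arrays were above WT (1.38, SE 0.25, limma adjusted p = 0.0440). Its call held under 9 of the 18 alternatives, and the adjusted p was 0.0963 with the Xist covariate. The smallest p in the epicardial list belonged to the integrin gene Itga4 (-0.39, SE 0.12, limma adjusted p = 0.138) and the uroplakin gene Upk1b (-0.56, SE 0.20, limma adjusted p = 0.190).

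**Figure D3:**
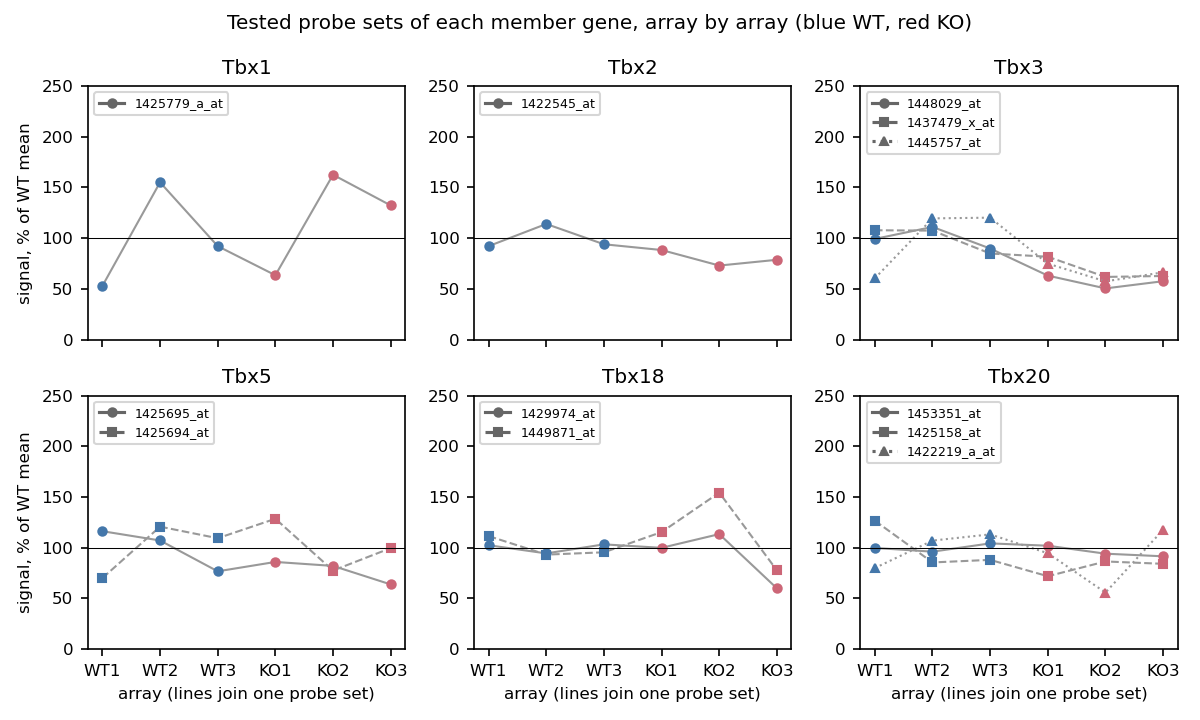
Signal of each tested probe set on each array as a percentage of its own WT mean, 1 panel per gene, with WT arrays in blue, KO arrays in red and lines joining the points of 1 probe set. The 2 brighter Tbx3 probe sets stay below the WT mean on all 3 KO arrays, and both Tbx18 probe sets rise on KO array 2 and drop on KO array 3.

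Tbx1, the pharyngeal factor lost in DiGeorge syndrome deletions, was near the low-signal limit. It read 47.2, 138 and 82.2 in WT against 56.6, 145 and 118 in KO, with WT array 1 below the limit. The groups overlapped almost fully, and the interval of the log2 fold change (0.28, SE 0.43, limma adjusted p = 0.786) ran from -0.66 to 1.23. The arrays therefore set only a wide bound on any change of Tbx1.

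Other genes of the T-box family were mostly dim. Of 9 on the array only 2 were tested and neither passed, with Tbr1, Tbx15, Tbx21 and Tbx22 below the limit on all 6 arrays. Mga, a T-box protein that also pairs with Max, read 1399, 1127 and 1160 in WT against 931, 782 and 972 in KO by its brightest probe set (-0.46, SE 0.13, limma adjusted p = 0.110). Of its 3 other tested probe sets, 2 had -0.39 and -0.35 and the third had 0.38 (SE 0.16, limma adjusted p = 0.248), and none of the 3 passed. Tbx19, the pituitary factor, had -0.22 (SE 0.40, limma adjusted p = 0.823).

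The genes that T-box factors act on and with were described from lists of known partners and targets, each gene by its brightest probe set. Over all 12712 such genes tested, the median log2 fold change was -0.04 and 0.645% passed. T-box proteins bind a half-site spelled AGGTGTGA, and the promoter of the atrial natriuretic peptide gene Nppa is a textbook example of a sequence that Tbx5 activates and Tbx2 and Tbx3 repress. Its sequence is given with that of its neighbour Nppb, which encodes the B-type peptide and passed the test. Both run from 250 bases before to 50 bases after the gene's start in RefSeq's GRCm38.p6 table, on the + strand, Nppa at chr4:148000472-148000771 and Nppb at chr4:147985650-147985949. Capitals mark the half-site, here as its reverse complement TCACACCT.
Nppa: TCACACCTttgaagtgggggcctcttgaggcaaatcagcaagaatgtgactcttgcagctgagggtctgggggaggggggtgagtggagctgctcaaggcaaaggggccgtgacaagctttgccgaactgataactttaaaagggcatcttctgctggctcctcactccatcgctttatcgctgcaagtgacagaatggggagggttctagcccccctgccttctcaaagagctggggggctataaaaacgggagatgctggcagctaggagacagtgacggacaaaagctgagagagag
Nppb: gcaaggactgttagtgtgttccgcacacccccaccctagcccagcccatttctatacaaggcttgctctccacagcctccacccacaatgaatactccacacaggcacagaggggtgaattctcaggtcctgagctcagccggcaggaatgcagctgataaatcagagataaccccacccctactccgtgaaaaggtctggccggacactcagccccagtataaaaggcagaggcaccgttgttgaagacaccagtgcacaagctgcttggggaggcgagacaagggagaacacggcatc
The half-site was found at the far end of the Nppa window, 250 bases before the gene's start, and not in the Nppb window. On either strand it occurs in 1.28% of all 32851 such windows. Among chamber genes it was in 1 of 15 windows, that of Nppa, and it was in none of the 4 windows of Tbx1, Tbx18 and Tbx20. A match describes letters in this window only.

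Chamber genes known to be repressed by Tbx2 and Tbx3 or activated by Tbx5 included 3 that rose. Of 14 on the array, 13 were tested, 3 rose, none fell and 10 did not pass, where 0.645% of all genes passed. Of the 13, 9 were above 0 and 4 below, where 56.2% of all genes were below, and the median was 0.10. The median was 0.034 without WT array 1 and 0.21 without WT array 3 or with probe sets averaged. Groups did not overlap for 8 of the 13, against 26.3% of all 12712 genes. Of these 8, Myh6 and Ryr2 were lower in KO and the rest higher. Ryr2, named for its direction and outside the naming rule, had -0.26 (SE 0.09, limma adjusted p = 0.178). Nppb read 4737, 4812 and 4422 in WT against 6435, 11245 and 10541 in KO (0.97, SE 0.17, limma adjusted p = 0.0391), and KO array 1 lay between WT and the other KO arrays. Cited1, a transcriptional co-regulator of ventricular myocardium, read 2956, 2913 and 3959 in WT against 4833, 5859 and 8137 in KO (0.92, SE 0.17, limma adjusted p = 0.0462). Smpx, a small protein of striated muscle, read 15884, 15013 and 17983 in WT against 21621, 23561 and 21477 in KO (0.45, SE 0.08, limma adjusted p = 0.0407). Each of the 3 stayed above 0 under all 18 alternatives. Since their groups did not overlap, leaving out an array could not turn that sign. The calls of Nppb and Cited1 held under 9 of the 18 and that of Smpx under 8. Like that of Tbx3, these calls were lost when any WT array or KO array 2 or 3 was left out, with limma adjusted p up to 0.181, 0.216 and 0.197. They were also lost with the Xist covariate (limma adjusted p = 0.0955, 0.166 and 0.0880, with Cited1 at 0.66), without the filter, without the intensity trend and with averaged probe sets. Averaging left these 3 fold changes as they were, and no gene at all passed in that fit. The call of Smpx was lost with median centring as well (adjusted p = 0.0684). Next by p were Myh6, the alpha myosin heavy chain (-0.25, SE 0.08, limma adjusted p = 0.135), and Ankrd1, a cardiac stress-response gene (0.28, SE 0.09, limma adjusted p = 0.155). A dimmer probe set of Myh6 had -0.75 (SE 0.38, limma adjusted p = 0.347) and one of Ankrd1 had 0.49 (SE 0.18, limma adjusted p = 0.210). For both of these the groups overlapped. Nppa, named here for its promoter and outside the naming rule, read 19291, 21193 and 23003 in WT against 23553, 24366 and 27483 in KO, without overlap (0.25, SE 0.08, limma adjusted p = 0.162).

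In the list of atrioventricular canal and sinus node genes co-expressed with Tbx2, Tbx3 or Tbx18, Bmp4 fell. Being listed does not place a change in these regions, and Isl1 is also counted in the second heart field and pharyngeal list. Of 18 tested, 1 fell, none rose and 17 did not pass, with 15 below 0 (56.2% of all genes were) and no overlap between groups for 7, against 26.3% of all genes. The median was -0.22, and -0.35 with the Xist covariate. Bmp4, a secreted ligand of the Bmp family, fell from 2323, 2449 and 2293 in WT to 1627, 1803 and 1576 in KO (-0.50, SE 0.09, limma adjusted p = 0.0462). That call held under 8 of the 18 alternatives. It was lost without KO array 3 or any WT array (adjusted p up to 0.226), and in the fit that blocks on the replicate number (adjusted p = 0.0552). It was also lost with the Xist covariate (-0.39, adjusted p = 0.153), with median centring (adjusted p = 0.113), without the filter, without the intensity trend and with averaged probe sets. Averaging left the Bmp4 fold change as it was, and no gene at all passed in that fit. Bmp2, the ligand that induces Tbx2 in the atrioventricular canal, read 3547, 2916 and 2156 in WT against 1950, 1797 and 2046 in KO, without overlap (-0.55, SE 0.15, limma adjusted p = 0.114). The calcium channel gene Cacna1d had -0.53 (SE 0.15, limma adjusted p = 0.113), while a dim probe set of the same gene had 0.33 (SE 0.35, limma adjusted p = 0.683). Summed signals of the list were 40979 to 45108 in WT and 37214 to 39783 in KO.

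**Figure D4:**
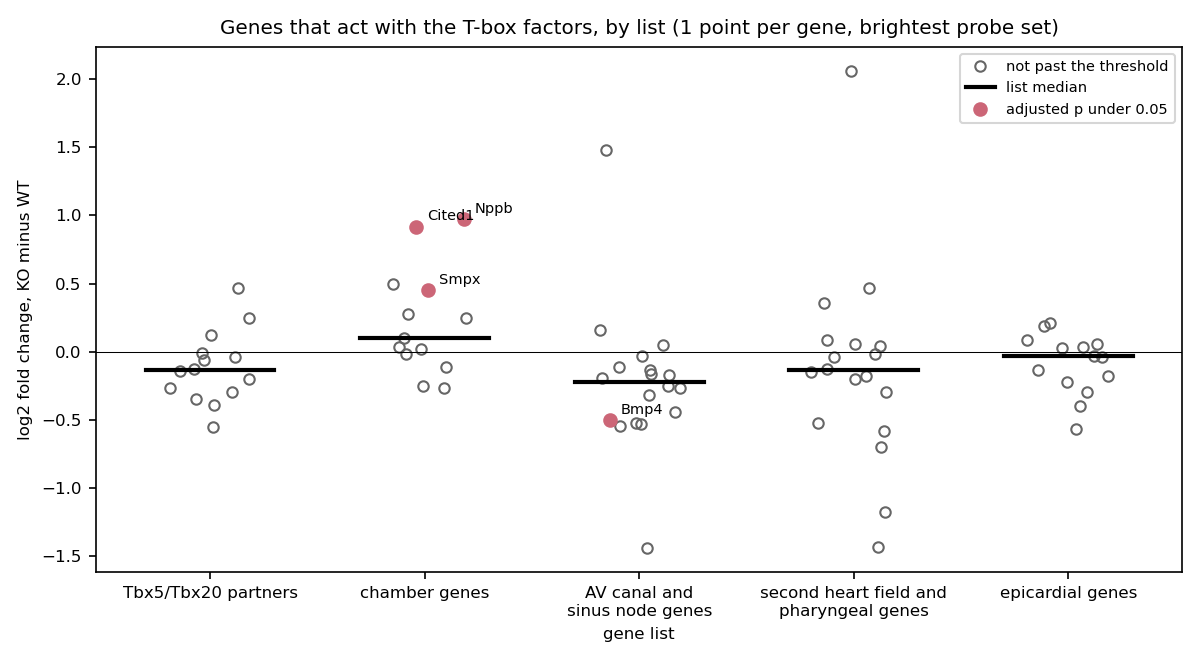
Log2 fold change (KO minus WT) of each tested gene in 5 lists of partners, targets and co-expressed genes, 1 point per gene at its brightest probe set, with black bars at the list medians. Chamber genes have a median of 0.10 and hold Nppb, Cited1 and Smpx, which passed the test above 0, and the atrioventricular canal and sinus node list has a median of -0.22 and holds Bmp4, which passed it below 0.

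None of the 14 partners and core cardiac factors passed, and 11 were below 0, where 56.2% of all genes were. Their median was -0.13, with -0.042 without KO array 2 and -0.26 with the Xist covariate. The smallest p belonged to Mef2c, a myogenic factor (-0.39, SE 0.11, limma adjusted p = 0.128), and Smarcd3, the chromatin subunit Baf60c that works with Tbx5 (-0.35, SE 0.10, limma adjusted p = 0.132). Neither overlapped between groups, and 4 other Mef2c probe sets had -0.45 to -0.02. Of 18 tested second heart field and pharyngeal genes, none passed and 12 were below 0, beside the same 56.2%. The median of this list was -0.14, with -0.031 with the Xist covariate and -0.22 with probe sets averaged. Isl1, the defining factor of second heart field progenitors, read 1121, 1169 and 1082 in WT against 598, 800.3 and 999.7 in KO (-0.52, SE 0.16, limma adjusted p = 0.140). Its other probe set had -0.65 (SE 0.25, limma adjusted p = 0.218). Nkx2-6, a homeobox gene of the pharynx and outflow tract, read 123, 102 and 121 in WT against 70.1, 19.3 and 99.1 in KO (-1.17, SE 0.50, limma adjusted p = 0.271). KO array 2 was below the low-signal limit for it, and the change was -0.47 without that array and -2.45 with the Xist covariate. Another Nkx2-6 probe set had -1.43 (SE 0.78, limma adjusted p = 0.384), with overlapping groups.

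The genes whose profile over the 6 arrays was most like that of a T-box gene were ranked by the root mean square difference of log2 signals, each centred on its own mean, among 12711 other tested genes. The nearest to Tbx3 were Snhg3, a small nucleolar RNA host gene, at 0.06, Pcyox1l at 0.07 and Safb2 at 0.08, where Tbx3 itself spread by 0.43 around its mean. For the factors that did not pass, the nearest were Pim2 to Tbx2 (0.04), Stk36 to Tbx5 (0.07), Arnt2 to Tbx18 (0.05), Rrm2b to Tbx20 (0.02) and Svs5 to Tbx1 (0.20). The 6 arrays were the same for every pair, so such likeness includes anything the arrays share.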

How the data were processed

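RNA of 6 embryonic heart samples, 3 per genotype as labelled, was hybridised to 1 Affymetrix array each. The authors deposited linear signal intensity values, 1 per probe set, for which the submitters' processing notes name Affymetrix Expression Console and MAS5. The sources used here give no version or settings for either. The MAS5 method subtracts mismatch from perfect-match signal, so dim probe sets are noisy. After trimming 2% at each end the mean of every array was 500, and no further scaling was done. The 64 control probe sets were left out. Of the others, 34945 had 1 gene symbol in the platform annotation, 932 several and 9160 none given here, and 34741 matched a RefSeq gene by identifier. RefSeq promoters matched 3 of the 6 T-box genes (Tbx1, Tbx18 and Tbx20). Values were taken to log2 and tested per probe set in R 4.3.3 with limma 3.58.1, using eBayes with its intensity trend and a threshold of 0.05, after testing the procedure on simulated data. A recovery share first required there was missed and was replaced by limits on bias and false calls. Detection calls were not used.

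The T-box genes, lists, tests and alternatives were chosen with earlier results of these data known. Named genes are every T-box probe set, pathway list genes past the threshold plus the 2 of smallest p among the rest of each pathway list, and the nearest profiles (3 for a factor past the threshold, otherwise 1, unnamed gene models skipped). Alternatives covered normalization, centring, low values, the filter, the feature, the variance model, a replicate block, an Xist covariate and leaving out each array.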

Additional observations from a re-analysis of the deposited data

How the results depend on the processing

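The count of probe sets past the threshold, 163, was 503 with array weights, 273 with low signals raised to the limit, 368 with the filter at all 6 arrays and 23 without a filter. It was 7 with the Xist covariate, and limma called 0 both with a gene's probe sets averaged (1720 at an unadjusted p under 0.05) and without the intensity trend (3816). Leaving out 1 array gave 1 to 934, lowest without WT array 1 and highest without KO array 1. The count of T-box probe sets, 1, was 0 with the Xist covariate, with probe sets averaged, without the filter and without the intensity trend (limma, with 4, 1, 4 and 2 at an unadjusted p under 0.05), and 0 to 2 with 1 array left out. The brightest Tbx3 probe set missed the threshold with the Xist covariate (-0.91), with probe sets averaged (-0.20), without the filter (-0.81, adjusted p = 0.0566) and without the trend (-0.81, adjusted p = 0.298), and was -0.89 to -0.73 with 1 array left out. Without the filter more probe sets are tested, and the average takes in dim ones. Otherwise the cause was not tested. Signs turned for values that did not pass: Tbx1 without WT array 1 (range with 1 array left out -0.11 to 0.69), Tbx5 1425694_at with the Xist covariate (-0.14) and without KO array 1 (-0.15) or WT array 1 (range -0.20 to 0.22), Tbx18 1429974_at with the Xist covariate (0.31) and without KO array 3 (range -0.37 to 0.090), Tbx18 1449871_at without KO array 2 (range -0.075 to 0.42), Tbx20 1422219_a_at without KO array 2 (range -0.45 to 0.093) and Tbx19 without KO array 2 (range -0.53 to 0.023). Tbx2, Tbx3 and the other Tbx5 and Tbx20 probe sets kept their sign throughout. For Tbx2 and the 2 brighter Tbx3 probe sets the groups did not overlap, so leaving out an array could not turn it. The labels do not say whether same-numbered arrays share a litter. Their deviations from the group means correlated at -0.01, 0.06 and 0.05, and those of arrays with unlike numbers at -0.06 to 0.01. With so few arrays per group, these correlations can neither show nor exclude pairing. A replicate block gave 213 calls, with Tbx3 at a limma adjusted p of 0.0398. Signals near the low-signal limit bound what can be said of Tbx1 and of 3 Tbx3 probe sets.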
